A study of Rattus norvegicus with 12 samples.

Results

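Cytochrome P450 genes of families 1 to 3 encode haem enzymes of the endoplasmic reticulum that oxidise drugs, dietary chemicals, steroids and fatty acids. They were taken as all genes whose symbol begins with Cyp1, Cyp2 or Cyp3 followed by a letter, named through the RefSeq accession of each array probe. Of 60 such symbols in the gene table, 38 had a probe matched in this way, with 48 probes in all. The signal of 32 of them was well above background on at least 5 of the 6 arrays of a diet, and these 32 were tested among 21874 genes. The others, Cyp1a1, Cyp2a3, Cyp2b12, Cyp2b21, Cyp2c24 and Cyp2j10, were well above background on at most 1 array of each diet and were not tested. Symbols without a matched probe, among them Cyp2b1 and Cyp2u1, were not analysed here.

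The livers came from 12 adult male Wistar rats, and each liver was measured on 1 single-colour array. For 4 weeks, 6 control rats ate a diet with 14% casein and 6 low protein rats ate a diet of equal energy with 5% casein. No transgene, drug or inducer is named for either group. Values below are log2 of the processed signal relative to the 75th percentile of the same array, so a value of 0 equals that percentile, and they compare rats for 1 probe but not 1 gene with another. Fold and log2 changes are low protein against control, and "rose" and "fell" are used where the limma adjusted p was under 0.05.

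Between 61.2% and 69.9% of the spots of an array were well above background. Arrays of 1 diet correlated across genes with r of 0.985 to 0.992, so no array repeated another. The arrays lay on 2 slides, 4 of each diet on slide 1 and 2 of each on slide 2. All 6 hepatocyte markers, such as Alb and Ttr, were measured. With 6 arrays in each diet, a member's log2 change had a median standard error of 0.13. Bulk liver RNA cannot tell fewer cells of a type from less RNA per cell. Members of a subfamily have similar sequences, the files hold no probe sequences, and how far a probe also reads a related transcript was not tested.

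The P450 cycle draws electrons from NADPH through P450 reductase and, for some reactions, through cytochrome b5. Many of these genes are induced by chemicals through nuclear receptors and related sensors: Cyp1a genes through AhR, Cyp2b genes mainly through CAR, and Cyp3a genes mainly through PXR. In rat liver another group differs between the sexes, set by the pattern of growth hormone release. Cyp2c11, Cyp2c13, Cyp2a2, Cyp3a2 and Cyp3a18 are higher in males, and Cyp2c12, Cyp2c7, Cyp2a1 and Cyp3a9 are higher in females.

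In low protein rats Cyp2a1, Cyp2a2, Cyp2c7, Cyp2c12, Cyp2c23 and Cyp3a9 fell and Cyp3a2 rose. These 7 genes were well above background in all 12 rats. Cyp2g1 was also past the threshold, but it passed the background filter through the control rats alone, the diet in which it is higher, so its difference is only described below. The falls ranged from 0.41 for Cyp2c23 to 1.80 for Cyp2c12 on the log2 scale, and the rise of Cyp3a2 was 0.54. Of the 30 members well above background on all 12 arrays, 7 changed, against 7.41% of the 19637 genes that met this filter. By direction 6 of them fell against 3.35% of those genes, and 1 rose against 4.06%. Under the main filter, with Cyp2g1 counted, 8 of 32 members were past the threshold (25%), beside 6.53% of all genes tested, 7 lower (3.05% of all genes) and 1 higher (3.48%). The median log2 change of the members was -0.01, beside -0.03 over all genes, and 16 members lay on each side of 0. In 4 members, Cyp2a1, Cyp2a2, Cyp2c7 and Cyp2c23, every low protein rat was below every control rat, a pattern seen in 1.98% of all genes. No member had all low protein rats above all controls (3.00% of all genes), and 4.98% of all genes were free of overlap in either direction. An unadjusted p under 0.05 was found for 14 of the 32 members, beside 21.6% of all genes.

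**Figure D1:**
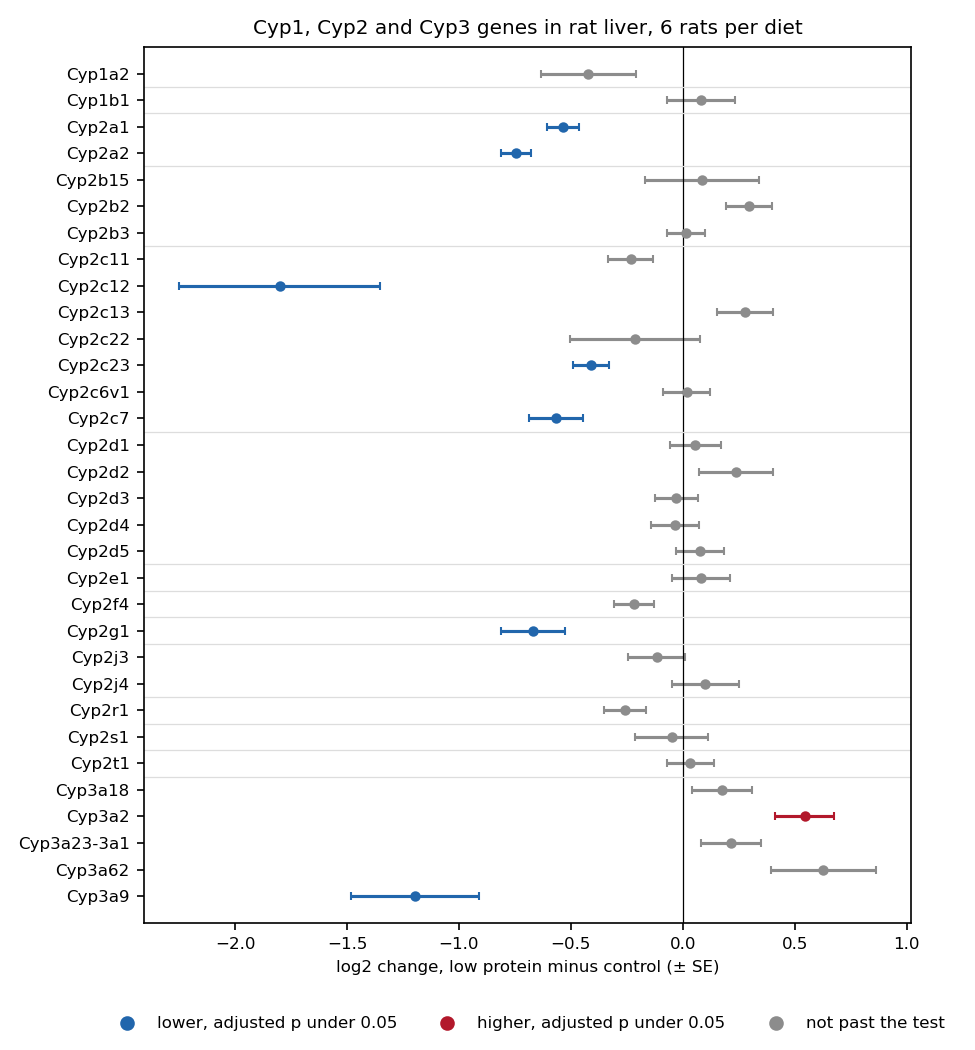
Log2 change of each tested Cyp1, Cyp2 and Cyp3 gene, low protein minus control, on the horizontal axis (points) with its standard error (bars), 6 rats per diet. The points lie between -1.80 (Cyp2c12) and 0.63 (Cyp3a62); 7 members past the threshold, Cyp2g1 included, lie left of 0 and 1, Cyp3a2, lies right of it.

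Both measured Cyp2a genes fell. They encode steroid hydroxylases of the liver. Control rats had Cyp2a2 values of 3.35 to 3.52 with a median of 3.45, and low protein rats had 2.52 to 2.81 with a median of 2.71. The 6 rats of each diet formed separate, narrow groups. The log2 change was -0.74 ± 0.07 (SE, n = 6 rats per diet, adjusted p = 8.05e-05), a 1.67-fold lower signal. For Cyp2a1 the lowest, median and highest control values were 2.57, 2.73 and 2.79, and the low protein values were 2.07, 2.15 and 2.37. Its groups also did not overlap, and it changed by -0.54 ± 0.07 (adjusted p = 0.00113), 1.45-fold. Both changes were present on each slide, with -0.69 and -0.84 for Cyp2a2 and -0.52 and -0.57 for Cyp2a1 on slides 1 and 2. Without scaling between arrays, a setting that moved the median of all genes to 0.11, Cyp2a1 was at -0.40 (adjusted p = 0.0614). Cyp2a3, a gene known from nasal tissue and lung, was well above background on 0 arrays.

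The Cyp2c subfamily held the largest fall and also members that did not pass the test. It had 7 tested genes, of which 3 fell and none rose. Cyp2c12, a steroid sulphate hydroxylase of female rats, had values of 0.72 to 3.04 in control rats (median 1.17) and of -0.98 to 1.32 in low protein rats (median -0.64). Control rat 6 lay far above its group and low protein rat 1 lay among the control values, while the other 5 low protein rats were all below the lowest control. The change was -1.80 ± 0.45, 3.49-fold lower (adjusted p = 0.0325). Its 2 probes gave -1.80 and -1.78, and the slides -1.77 and -1.87. Leaving out any 1 of 7 arrays (control rats 4 and 5, low protein rats 2 to 6) took the adjusted p past the threshold, to at most 0.0674, with changes of -1.83 to -1.68. Without low protein rat 1 the change was -2.14 (adjusted p = 0.00688), and without control rat 6 it was -1.48 (adjusted p = 0.0423).

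Cyp2c7, a retinoic acid hydroxylase that is also higher in females, was read by 5 probes. On the brightest, control rats were nearly equal, from 6.22 to 6.31 (median 6.27), and low protein rats spread from 5.23 to 6.01 (median 5.80). No low protein rat reached the lowest control, and the SD was 0.04 in control and 0.30 in low protein rats. The change on this probe was -0.57 ± 0.12 (adjusted p = 0.0156), with -0.53 and -0.65 on slides 1 and 2. The other 4 probes gave -0.64, -0.77, -0.94 and -1.11. The tested probe thus showed the smallest change, and the diets overlapped on 1 probe of the 5. Without scaling between arrays Cyp2c7 was at -0.44 (adjusted p = 0.0703).

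The arachidonic acid epoxygenase Cyp2c23 fell with smaller steps. Its control values were 6.09 to 6.31 (median 6.14) and its low protein values 5.59 to 5.99 (median 5.72), with no overlap. The change was -0.41 ± 0.08 (adjusted p = 0.0104), and slides 1 and 2 gave -0.36 and -0.50. Without scaling it was at -0.28 (adjusted p = 0.286).

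Cyp2c11, the major male P450 of rat liver, did not pass the test. Control rats had 6.98 to 7.35 (median 7.26) and low protein rats 6.78 to 7.26 (median 6.90), with a change of -0.23 ± 0.10 (adjusted p = 0.194). The groups overlapped, and the 95% interval of the change was -0.45 to -0.02. Cyp2c13, another male gene, was at 6.31 to 6.77 (median 6.65) in control and 6.54 to 7.23 (median 6.87) in low protein rats, a change of 0.28 ± 0.12 (adjusted p = 0.215). Cyp2c6v1, from a constitutive liver gene, changed by 0.02 ± 0.10 (adjusted p = 0.951), with values of 5.02 to 5.58 (median 5.43) in control and 5.17 to 5.56 (median 5.39) in low protein rats. Its sign turned with the scaling (-0.05 after quantile normalization), and its interval was -0.21 to 0.24. In Cyp2c22, which encodes a retinoic acid hydroxylase, control rats had 0.37 to 1.5 (median 1.18) and low protein rats -0.48 to 1.22 (median 1.12). The lowest of these was low protein rat 6, apart from all other low protein rats, and the change was -0.21 ± 0.29 (adjusted p = 0.736).

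**Figure D2:**
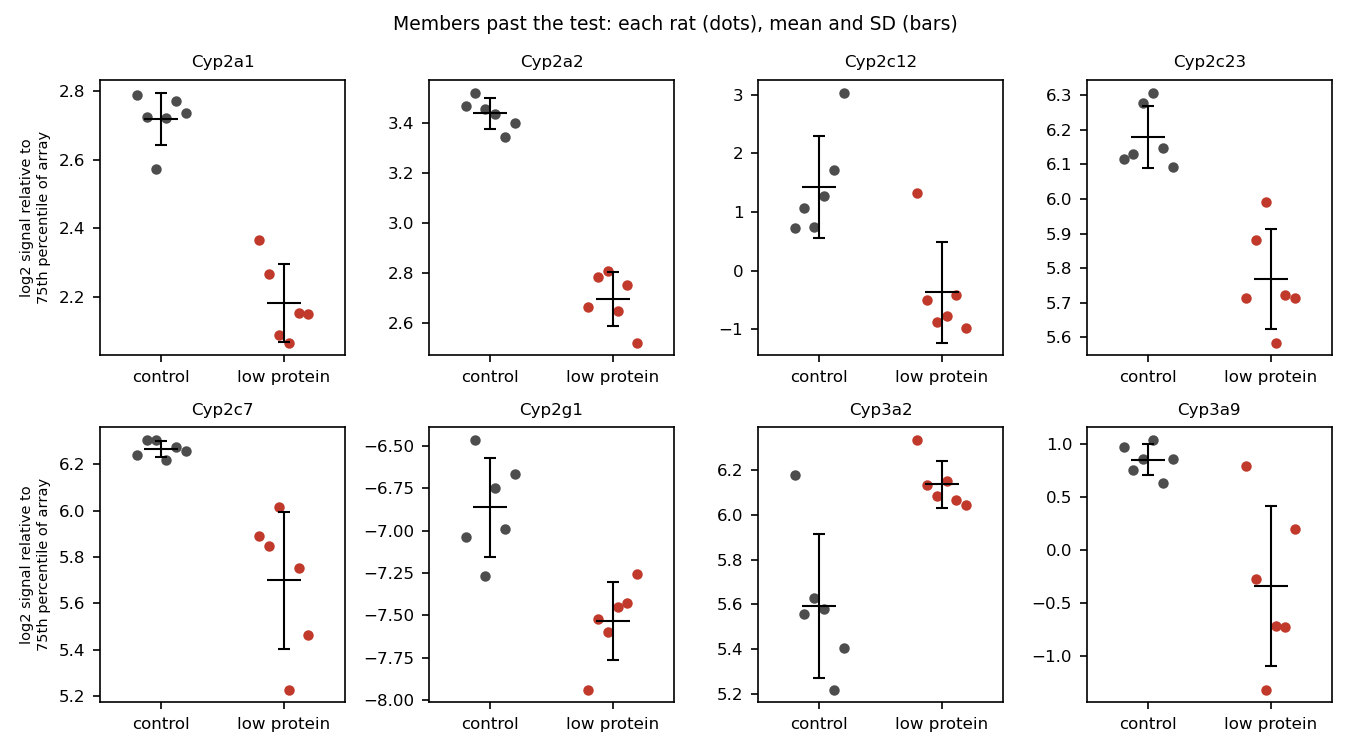
Log2 signal relative to the array's 75th percentile (vertical axis, a separate scale per panel) of each rat for the 8 members past the test, control in grey and low protein in red; horizontal bars are means and vertical bars SD, n = 6. Low protein rat 1 (the leftmost red dot) lies near the control rats in Cyp2c12 (1.32) and Cyp3a9 (0.80), and no values overlap in Cyp2a1, Cyp2a2, Cyp2c7 and Cyp2c23.

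In the Cyp3a subfamily 1 member rose and 1 fell among 5 tested. Cyp3a enzymes hydroxylate steroids and a wide range of drugs. Cyp3a2, the main male form, was at 5.22 to 6.18 in control rats (median 5.57) and at 6.05 to 6.34 in low protein rats (median 6.11). Control rat 1, at 6.18, lay inside the low protein range, and the other 5 control rats lay below all low protein rats. The change was 0.54 ± 0.13, 1.46-fold higher (adjusted p = 0.031), and it was 0.57 and 0.49 on the slides. This call ended when any 1 of 9 arrays was left out (control rats 2 to 6, low protein rats 1, 2, 4 and 5), with adjusted p of at most 0.0644 and changes of 0.47 to 0.56.

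Cyp3a9, listed above as higher in females, was at 0.63 to 1.04 in control rats (median 0.86) and at -1.32 to 0.80 in low protein rats (median -0.50). Low protein rat 1 overlapped the controls, and the other 5 lay below them. The SD was 0.15 in control and 0.75 in low protein rats. Its change was -1.20 ± 0.28, 2.29-fold lower (adjusted p = 0.0271), with -1.21 and -1.17 on the slides. Leaving out control rat 1, 3 or 4 or low protein rat 2, 4 or 5 took the adjusted p to between 0.0511 and 0.059, with changes of -1.21 to -1.12.

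The other Cyp3a genes did not pass. Cyp3a62, a form of gut and liver, had values of -1.63 to -0.77 in control rats (median -1.35) and -1.25 to 0.34 in low protein rats (median -0.75). Low protein rat 4 stood highest, and the change was 0.63 ± 0.23 (adjusted p = 0.137, 95% interval 0.12 to 1.14). Cyp3a23-3a1, the form most known for induction through PXR, gave opposite signs on its 2 probes. The tested probe was at 4.18 to 5.04 in control (median 4.71) and 4.70 to 5.15 in low protein rats (median 4.86), a change of 0.21 ± 0.13 (adjusted p = 0.399). The other probe had a mean of 4.38 in control and 3.92 in low protein rats, a difference of -0.46, and the mean of both gave -0.12 (adjusted p = 0.668). No direction is therefore given for this gene. Cyp3a18 was at 3.75 to 4.25 (median 4.13) and 3.94 to 4.66 (median 4.26), a change of 0.18 ± 0.13 (adjusted p = 0.503).

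**Figure D3:**
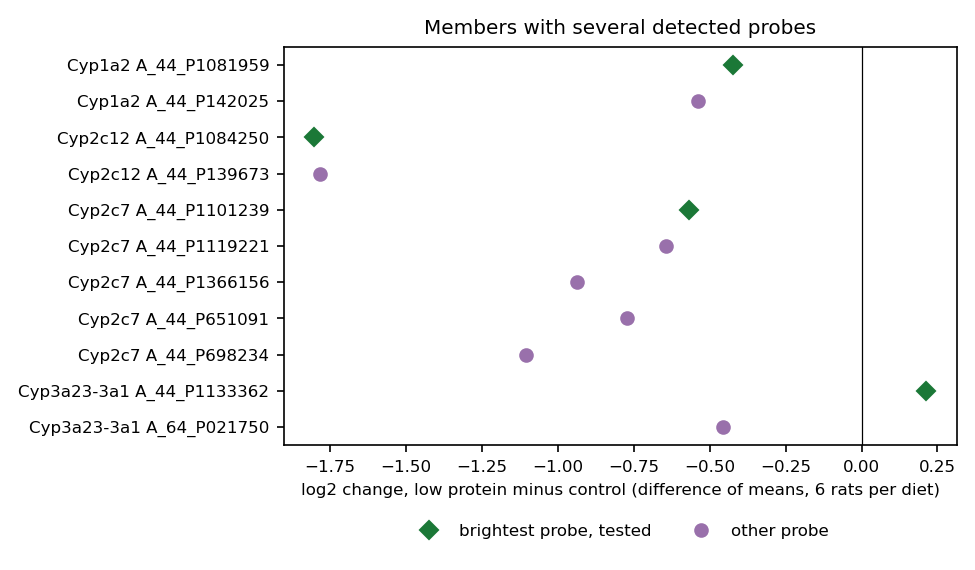
Log2 change, low protein minus control, on the horizontal axis for every probe of the 4 members with more than 1 detected probe; green diamonds are the brightest probe, which was tested, and purple circles the others. All 5 probes of Cyp2c7 lie between -1.11 and -0.57, whereas those of Cyp3a23-3a1 lie at 0.21 and -0.46.

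All 4 members listed above as higher in females fell, with a median log2 change of -0.88. Members outside the 2 lists above were not sorted by sex, and the lists may leave out sex-dependent members. Among the unsorted, Cyp3a62 had a change of the opposite sign (0.63 ± 0.23, adjusted p = 0.137 with limma). The falls of the 4 therefore do not stand for every female-weighted P450. Of the 5 male-weighted members, Cyp2a2 fell, Cyp3a2 rose, and Cyp2c11, Cyp2c13 and Cyp3a18 did not pass. This grouping was made with the values known, so its counts are a description and were not tested. Of 7 tested other genes that differ between the sexes in rat liver, none passed, beside 6.53% of all genes tested. The 14 tested genes of growth hormone signalling held no call either. The median log2 changes of these lists were -0.11 and -0.21, beside -0.03 over all genes. The first list was not split by sex, so its median cannot show a shift of male or female genes. In the first list Srd5a1, a steroid reductase, was at 2.21 to 3.17 in control and 1.16 to 2.49 in low protein rats (-0.69 ± 0.26, adjusted p = 0.135). With rat number as a block Srd5a1 was past the threshold (-0.69 ± 0.14, adjusted p = 0.0348). In the second, Igf1, the growth factor driven by growth hormone, was at 6.00 to 6.18 and 5.55 to 6.10 (-0.33 ± 0.10, adjusted p = 0.0627). Igf1 was past the threshold with the mean of its probes (-0.46, adjusted p = 0.017), with a trended robust spread (adjusted p = 0.0314), after quantile normalization (-0.36, adjusted p = 0.0404), after normexp correction (-0.32, adjusted p = 0.0464) and without low protein rat 3 (-0.40, adjusted p = 0.02). Without scaling it was at -0.20 (adjusted p = 0.502).

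Upstream sequences of 5 members that changed, 4 of them female-weighted and lower and 1 (Cyp3a2) male-weighted and higher, are shown as the sex-dependent members that changed and have an entry in the promoter table. They are the 250 bases before the start site in RefSeq (build GRCr8), 5′ to 3′ on the gene's strand. Capitals mark any match, on either strand, to 7 motifs: TATAAA (the TATA box), TTCNNNGAA (STAT5), AGGTCA (nuclear receptors), CAAAGTCCA (HNF4), GTTAAT (HNF1), TGTTTAC (FOXA) and GCGTG (AhR). Cyp2a2, which is male-weighted and fell, is named only, since no entry matched it.
Cyp2a1, chr1:91359028-91359277, + strand: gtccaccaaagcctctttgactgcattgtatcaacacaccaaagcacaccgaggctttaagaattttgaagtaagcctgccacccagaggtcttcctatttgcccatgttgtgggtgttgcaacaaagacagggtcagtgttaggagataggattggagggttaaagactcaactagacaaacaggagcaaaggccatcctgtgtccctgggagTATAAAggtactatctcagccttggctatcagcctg
Cyp2c7, chr1:247966144-247966393, + strand: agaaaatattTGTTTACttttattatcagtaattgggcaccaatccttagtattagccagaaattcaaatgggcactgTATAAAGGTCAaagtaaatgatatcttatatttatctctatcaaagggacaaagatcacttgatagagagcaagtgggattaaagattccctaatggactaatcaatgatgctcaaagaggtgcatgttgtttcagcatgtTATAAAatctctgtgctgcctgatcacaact
Cyp2c12, chr1:248677035-248677284, - strand: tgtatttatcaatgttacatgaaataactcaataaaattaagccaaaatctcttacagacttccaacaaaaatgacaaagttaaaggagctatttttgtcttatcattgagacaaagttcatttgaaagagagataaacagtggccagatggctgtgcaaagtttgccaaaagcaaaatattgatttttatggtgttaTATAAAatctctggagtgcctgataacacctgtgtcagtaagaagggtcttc
Cyp3a9, chr12:21960161-21960410, - strand: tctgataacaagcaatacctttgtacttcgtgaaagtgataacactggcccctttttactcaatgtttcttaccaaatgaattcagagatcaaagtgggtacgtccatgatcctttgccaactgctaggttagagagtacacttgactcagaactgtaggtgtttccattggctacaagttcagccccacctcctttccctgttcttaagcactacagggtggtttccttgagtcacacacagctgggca
Cyp3a2, chr12:14343858-14344107, - strand: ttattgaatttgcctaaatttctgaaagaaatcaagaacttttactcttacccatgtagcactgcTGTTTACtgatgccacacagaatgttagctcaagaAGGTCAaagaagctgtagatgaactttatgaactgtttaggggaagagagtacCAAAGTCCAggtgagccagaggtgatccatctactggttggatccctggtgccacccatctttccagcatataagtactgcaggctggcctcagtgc

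TATAAA began 36 bases before the start in Cyp2a1, 52 in Cyp2c12 and 31 in Cyp2c7, and 12.9% of 33469 windows of this length hold it. Cyp2c7 had another TATAAA, whose last base is the first of an AGGTCA, and a TGTTTAC. Cyp3a2 had AGGTCA, CAAAGTCCA and TGTTTAC, which 14.1%, 0.338% and 3.21% of all windows hold. CAAAGTCCA was also present upstream of Cyp3a23-3a1. None of the 7 motifs was found in the Cyp3a9 window. TTCNNNGAA, held by 7.67% of windows, was found in none of the 5 shown. GTTAAT (6.45%) and GCGTG (25.9%) were not found in these 5 either. These matches describe letters in a short window and show no binding.

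The tested Cyp1a, Cyp1b and Cyp2b members did not pass the test. Cyp1a2, which oxidises caffeine and aromatic amines, was at 2.93 to 3.75 in control (median 3.39) and 2.22 to 3.62 in low protein rats (median 2.89). It changed by -0.42 ± 0.21 (adjusted p = 0.276), its 95% interval was -0.88 to 0.04, and its other probe gave -0.54. Cyp1a1, the most AhR-dependent form, was well above background on 0 control arrays and 1 low protein array. Cyp1b1, mainly known outside the liver, was at 0.08 ± 0.15. Cyp2b2, which phenobarbital induces through CAR, had values of 0.32 to 0.93 in control (median 0.66) and 0.79 to 1.10 in low protein rats (median 0.96). The ranges overlapped, with a change of 0.30 ± 0.10 (adjusted p = 0.116). Cyp2b3 and Cyp2b15 were at 0.01 and 0.09.

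The Cyp2e, Cyp2d, Cyp2r and Cyp2j members did not pass. Cyp2e1, which oxidises ethanol and other small molecules, was at 5.60 to 6.19 in control (median 6.00) and 5.59 to 6.23 in low protein rats (median 6.08). It changed by 0.08 ± 0.13 (adjusted p = 0.776), and its 95% interval of -0.20 to 0.36 leaves out a 1.5-fold change either way. All 5 Cyp2d genes, relatives of the human gene for debrisoquine oxidation, lay between -0.04 and 0.24. Of these Cyp2d1 was at 5.60 to 6.26 in control (median 5.83) and 5.74 to 6.16 in low protein rats (median 5.86), a change of 0.06 ± 0.11. Cyp2d2 was at 2.42 to 3.22 (median 2.61) and 2.60 to 3.32 (median 2.90), a change of 0.24 ± 0.16 (adjusted p = 0.451). Cyp2r1, a vitamin D hydroxylase, was at -4.23 to -3.90 (median -4.03) and -4.64 to -4.08 (median -4.28), a change of -0.26 ± 0.09 (adjusted p = 0.122). The arachidonic acid epoxygenase Cyp2j3 was at 1.39 to 2.11 (median 1.92) and 1.45 to 2.03 (median 1.74), a change of -0.12 ± 0.13. Changes of -0.22 to 0.10 were found in the remaining Cyp2f4, Cyp2j4, Cyp2s1 and Cyp2t1. Signs of Cyp2d3, Cyp2d4, Cyp2j3 and Cyp2s1 turned without scaling between arrays.

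Of the 24 members that did not pass, 19 had a 95% interval that lay inside a 1.5-fold change either way, without adjustment for the number of genes. Each interval is that of the tested probe alone. The 19 include Cyp3a23-3a1, whose other probe gave -0.46, so that gene is not bounded. They also include Cyp1b1, whose probe was dim and well above background on 11 arrays. The intervals of Cyp1a2, Cyp2b15, Cyp2c22, Cyp2d2 and Cyp3a62 reached further.

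Cyp2g1, known from olfactory tissue, had a dim probe. It was well above background on 5 control arrays and 1 low protein array, at -7.27 to -6.46 in control (median -6.87) and -7.94 to -7.25 in low protein rats (median -7.48). It entered the test through the control arrays alone, and most low protein values lie at background, so the difference of -0.67 is a description and supports no fall. The difference was smaller under other background handling. It was -0.16 (adjusted p = 0.24) after normexp correction, which adds an offset of 50, and -0.21 (adjusted p = 0.144) in the deposited raw values. Why it was smaller was not tested. Its other probe was well above background on 0 arrays.

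For genes that work with these P450s, calls are given beside the 6.53% of all genes tested that were past the threshold. The lists had median log2 changes of -0.03 for electron transfer partners, 0.03 for haem synthesis and breakdown and 0.08 for receptors, beside -0.03 over all genes. Among 7 electron transfer partners, Cyb5b, an outer mitochondrial cytochrome b5, fell. Its values were -1.91 to -1.35 in control (median -1.59) and -2.37 to -1.81 in low protein rats (median -2.11), which overlapped narrowly, and the change was -0.49 ± 0.11 (adjusted p = 0.0248). That call ended without scaling (-0.35, adjusted p = 0.163) and without control rat 2, 3 or 5 or low protein rat 5 (adjusted p of at most 0.0586). None of the 12 genes of haem synthesis and breakdown passed, and Ppox had the smallest p (-0.31 ± 0.10, adjusted p = 0.0994). In 1 of 12 fits with 1 array left out, Ppox was past the threshold (adjusted p = 0.0303). Of 14 receptors and partners, Nr1i3, the gene of CAR, rose and none fell. Nr1i3 was at -0.63 to 0.27 in control (median 0.09) and 0.27 to 1.19 in low protein rats (median 1.04). The highest control and the lowest low protein rat were nearly equal, and the change was 1.01 ± 0.20, 2.02-fold (adjusted p = 0.0101).

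A few other known targets of these receptors rose. Over all genes tested, 3.48% rose and 3.05% fell. Of 15 tested targets of CAR and PXR 2 rose and none fell, with a median of 0.13. Akr7a3, an aflatoxin aldehyde reductase, was at 0.74 to 2.28 in control (median 0.92) and 2.07 to 4.01 in low protein rats (median 3.49), a change of 2.06 ± 0.35 (adjusted p = 0.00514). Control rat 1 alone lay inside the low protein range. Aldh1a1, a retinal dehydrogenase, was at 1.36 to 3.33 (median 2.14) and 3.37 to 4.58 (median 4.19), without overlap, a change of 1.89 ± 0.34 (adjusted p = 0.00677). Of 5 other AhR targets Ugt1a6, a glucuronosyltransferase, rose (0.45 ± 0.11, adjusted p = 0.0274) and the median was 0.01. The mean of its probes gave 1.18, and the call ended (adjusted p of at most 0.0676) without control rat 2, 3, 5 or 6 or low protein rat 2 or 6. Whether these changes differ from those of Cyp2b2 or Cyp1a2 was not tested. None of 7 epoxide hydrolases and carboxylesterases passed (Ephx1 0.55 ± 0.19, adjusted p = 0.105), with a median of 0.26. Ephx1 was past the threshold in 1 of 12 fits with 1 array left out (adjusted p = 0.0347).

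**Figure D4:**
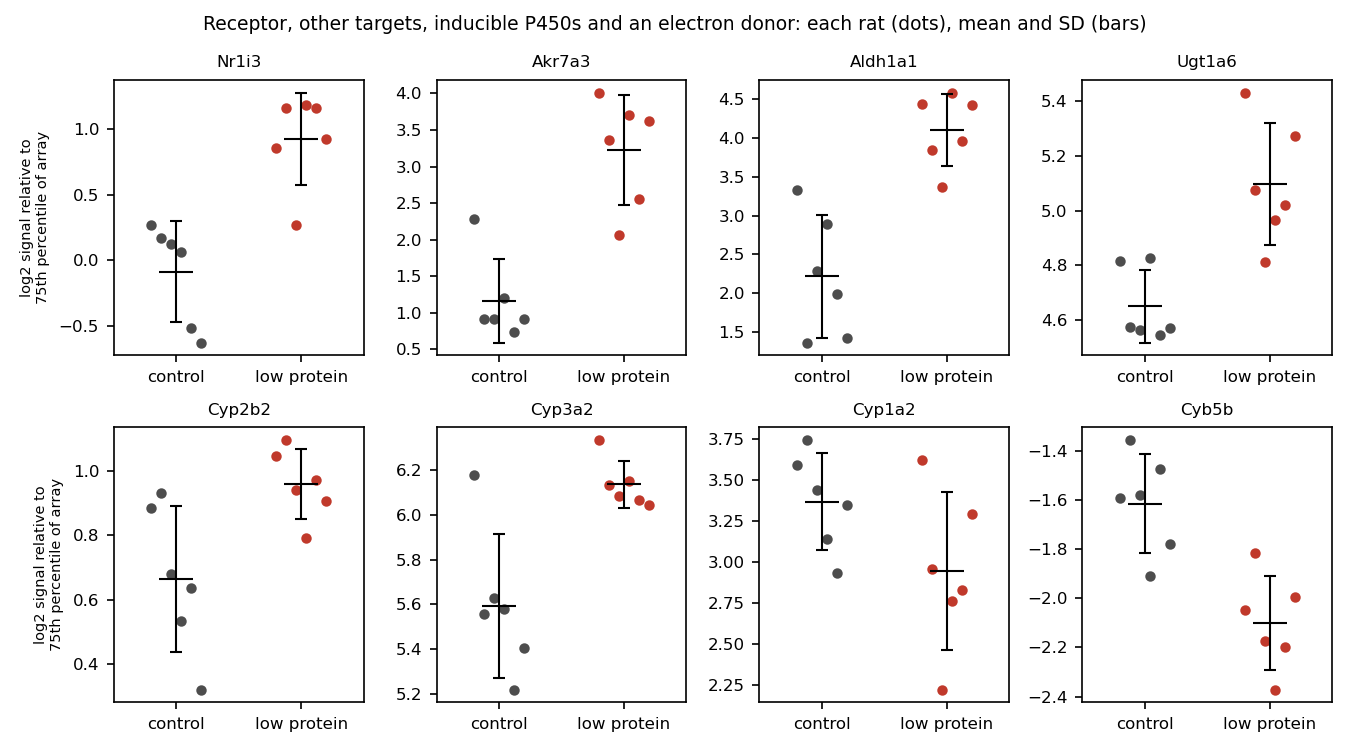
Log2 signal relative to the array's 75th percentile (vertical axis, a separate scale per panel) of each rat for CAR (Nr1i3), 3 other targets (Akr7a3, Aldh1a1, Ugt1a6), 3 inducible P450s and Cyb5b, control in grey and low protein in red; bars are means and SD, n = 6. The low protein mean lies higher in Nr1i3, Akr7a3, Aldh1a1 and Ugt1a6; of the 8 panels the diets are free of overlap in Aldh1a1 alone.

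P450 genes of the other families were past the threshold in 3 of 26 tested (11.5%), beside 6.53% of all genes tested. Cyp51, of sterol synthesis, and Cyp21a1, a steroid hydroxylase, fell by 0.82 and 0.62 (adjusted p = 0.00903 and 0.0193). Cyp26b1, a retinoic acid hydroxylase, was higher by 1.88 ± 0.49 (adjusted p = 0.0399). Its probe was not well above background on all 12 arrays, so this difference is only described. The Cyp26b1 change was 0.80 after normexp correction, and its call ended when any array but control rat 1 or 2 or low protein rat 6 was left out (adjusted p of at most 0.0812). Without scaling Cyp21a1 was at -0.48 (adjusted p = 0.0874).

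Several liver gene groups were looked at beside these results, and their counts stand beside 3.48% of all genes that rose and 3.05% that fell. Of 9 tested pericentral genes, from the zone where many P450s are highest, Oat, an aminotransferase, fell (-2.18 ± 0.26) and Lect2 rose (0.62 ± 0.11), with a median of 0.31. Of 9 periportal genes 5 fell, namely Sds, Gls2, Cps1, Ass1 and, named after its value was seen, Hal (-5.19, -0.79, -0.68, -0.95 and -0.50), and the median was -0.68. None of 12 acute phase and cytokine genes passed (Fgg -0.18 ± 0.10, adjusted p = 0.31; median -0.15). Apoa1 fell among the 6 hepatocyte markers (-0.84 ± 0.14), and their summed level, in multiples of the array's 75th percentile, was 637 to 739 in control and 543 to 705 in low protein rats. Markers of other cells included no rise. Ptprc, of leukocytes, fell (-0.43 ± 0.11) among 6 tested markers of lymphocytes and neutrophils, whose summed level was 0.511 to 0.863 in control and 0.589 to 0.786 in low protein rats, with Cd3e and Cd79b not well above background. Fabp2, of gut, fell (-1.11 ± 0.30) among 3 tested of kidney and gut, summed at 0.288 to 1.10 and 0.232 to 0.453, with Slc12a1 and Vil1 not well above background. With 1 array left out, the call of Ptprc ended for every array but control rat 6 and low protein rats 3 and 4 (adjusted p of at most 0.073), and that of Fabp2 for every array but control rat 1 and low protein rat 4 (at most 0.104). The call of Fabp2 also ended with slide as a block (adjusted p = 0.0581), after quantile normalization (0.0555) and without scaling (0.129), and that of Ptprc without scaling (-0.30, adjusted p = 0.307). No call was made in the other marker lists. Summed levels of 7 Kupffer cell markers were 13.4 to 28.4 in control and 13.7 to 20.0 in low protein rats (Adgre1 -0.49 ± 0.17, adjusted p = 0.111). The brightest of them, Clec4f, weighs most in this sum. Log2 changes of the 7 were all below 0, from -0.72 to -0.24, with a median of -0.37, beside -0.03 over all genes. Adgre1 was past the threshold in 1 of 12 fits with 1 array left out (adjusted p = 0.0237). Summed levels of 8 stellate cell markers were 2.94 to 3.91 and 2.58 to 3.65 (Pdgfrb -0.62 ± 0.27, adjusted p = 0.199). Those of 5 endothelial markers were 15.1 to 18.3 and 16.2 to 17.6 (Pecam1 -0.11 ± 0.07, adjusted p = 0.387, with the sign turned without scaling). Those of 6 bile duct markers were 0.256 to 0.434 and 0.207 to 0.341 (Epcam -0.46 ± 0.18, adjusted p = 0.168). Those of 4 erythroid markers were 76.8 to 147 and 79.2 to 139 (Alas2 0.22 ± 0.33, adjusted p = 0.758). Of 5 pancreatic acinar markers Cpa1, Pnlip and Prss1 were not well above background, and the 2 tested summed to 45.6 to 54.6 and 42.2 to 55.8 (Cela1 -0.07 ± 0.15, adjusted p = 0.846, with the sign turned without scaling). The part of these groups in the P450 changes was not tested.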

How the data were processed

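Total RNA of 12 livers was labelled with Cy3 dye for single-colour Agilent arrays, per the labels' protocols. Per the file headers, the authors extracted the spots with Agilent Feature Extraction 12.0.3.1, whose processed signal derives from a background-subtracted signal. The deposited intensity is linear and unscaled across arrays; the deposited table holds the raw median intensity at 100% of spots.

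For each spot log2 of the processed signal was taken relative to the array's 75th percentile. Between 453 and 739 outlier spots per array were set missing, 0 spots were saturated, and repeated spots were averaged. Of 45598 probes, 21215 (46.5%) matched a gene by unversioned accession in the RefSeq table of GRCr8. Per gene, the brightest probe passing the background filter was tested with limma 3.58.1 (lmFit, eBayes, two-sided, Benjamini-Hochberg over all genes) in R 4.3.3, after a test on simulated data. Alternatives covered background, scaling, filter, probe choice, slide, rat number and left-out arrays. Members and lists were chosen with earlier results of these data known. Named genes are all members that passed, a set list of liver P450s, and per other list up to 4 changed genes, or else the gene with the smallest p. The labels number the rats; nothing says how they were housed, so p-values measure the spread between these samples. Metabolite and PCR data were not analysed here.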

Additional observations from a re-analysis of the deposited data

Results flagged for a closer look

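In 5 of 64 groups of 6 rats (32 members in 2 diets) 1 rat lay far from the others, the gap to the nearest rat being larger, relative to the group's range, than Dixon's 95% critical value; chance alone gives about 1 in 20 such groups. Control rat 3 was lowest in Cyp2a1 at 2.57, the nearest control being 2.72. Low protein rat 1 was highest in Cyp2c12 at 1.32 (nearest -0.417) and in Cyp3a2 at 6.34 (nearest 6.15). Low protein rat 6 was lowest in Cyp2c22 at -0.484 (nearest 0.865). Low protein rat 4 was highest in Cyp3a62 at 0.344 (nearest -0.689). Without low protein rat 1 the change of Cyp2c12 was -2.14 and that of Cyp3a2 was 0.50 (adjusted p = 0.0644 with limma).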

How the results depend on the processing

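All 8 members past the threshold kept their direction under every setting in which they were tested; Cyp2g1 was not tested where a probe had to be well above background on all 12 arrays. Without scaling, 891 genes changed (212 lower, 76.2% higher against 53.3%) and 4 members (3 lower), Cyp2a1, Cyp2c7, Cyp2c23 and Cyp2g1 being lost. Without the filter on dim probes 618 genes changed (326 higher, 292 lower) and 4 members (0 higher, 4 lower). The members lost were Cyp2c12 (adjusted p = 0.0833), Cyp2g1, Cyp3a2 and Cyp3a9. That setting tested 39002 genes and gave the lost members larger standard errors, such as 0.460 against 0.448 for Cyp2c12. On slide 1 alone 151 genes changed (76 higher, 75 lower) and 1 member, Cyp2a2 (0 higher, 1 lower). On slide 2 alone limma called 0 genes higher or lower and 0 members, with 2109 genes and 9 members at an unadjusted p under 0.05; both use fewer arrays. A 1.5-fold minimum left 625 genes (261 higher, 364 lower) and 4 members (0 higher, 4 lower). Leaving out 1 array at a time gave 854 to 1310 genes (439 to 748 higher, 415 to 701 lower) and 5 to 7 members (0 to 1 higher, 5 to 7 lower); without control rat 6, 44.3% of calls were higher.

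With rat number as a replicate block, 2 members were higher, Cyp3a62 being gained (adjusted p = 0.0498), Cyp2c12 was lost (adjusted p = 0.0782), and Srd5a1 was gained (adjusted p = 0.0348). Deviations of same-numbered rats correlated at 0.26, 0.13, 0.11, 0.10, 0.03 and 0.12 for rats 1 to 6, all above the median of -0.03 between other numbers. Rat 5 was under 0.1, and control rats 1 and 6 alone matched their own number best. The labels name no link between such rats, so the fit without the block was kept, and whether the numbers pair the rats is not settled.

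Some members that did not pass turned sign between settings, as did the marker genes Pecam1 and Cela1, and the cause was not tested. After normexp correction Cyp1b1 was at -0.0095, Cyp2b15 at -0.084 and Cyp2c6v1 at -0.0062. In the deposited values Cyp2b15 was at -0.058 and Cyp2c6v1 at -0.0094, and after quantile normalization Cyp2c6v1 was at -0.054. Without scaling Cyp2d3 was at 0.10, Cyp2d4 at 0.10, Cyp2j3 at 0.015, Cyp2s1 at 0.083, Pecam1 at 0.019 and Cela1 at 0.065. With the mean of probes Cyp3a23-3a1 was at -0.12. On slide 1 Cyp2c22 was at 0.016, Cyp2d4 at 0.021, Cyp2j3 at 0.0073 and Cyp2j4 at -0.000246. On slide 2 Cyp1b1 was at -0.0086, Cyp2b15 at -0.19, Cyp2s1 at 0.20, Cyp2t1 at -0.073 and Cyp3a23-3a1 at -0.014. With 1 array left out the ranges were -0.051 to 0.22 for Cyp2b15, -0.015 to 0.055 for Cyp2b3, -0.35 to 0.052 for Cyp2c22, -0.052 to 0.060 for Cyp2c6v1, -0.091 to 0.015 for Cyp2d3, -0.090 to 0.0084 for Cyp2d4, -0.15 to 0.055 for Cyp2s1, -0.029 to 0.082 for Cyp2t1 and -0.12 to 0.029 for Cela1. Dim probes such as that of Cyp2g1 limit what the signal over background can show.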
